A study of Sus scrofa with 16 samples.

Results

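The FOXO1 (ENSSSCG00000009370, NCBI Gene 397077) promoter locus was studied as all MeDIP-seq peaks on chromosome 11 of Sscrofa10.2 that overlapped bases 15592001 to 15792500. This region holds the 500 bp window from 15692001 to 15692500, which the study listed as a differentially methylated part of the FOXO1 promoter, with 100 kb on each side. The study took a fixed stretch upstream of the transcription start as a promoter. Where in this stretch the window lies was not analysed here. The region contained 89 of the 1159046 peaks in all 4 lists, of which 22 were TH, 23 TL, 20 YH and 24 YL peaks. The window was selected on the reads of these animals, by a difference between breeds at both elevations, so the breed values at the promoter are given as a description. The promoter windows stayed among the windows of the genome over which p-values were adjusted, but no p for breed is given for them. The nearest peaks that the region left out were a YH peak 0.61 kb before its start (19 tags, fold enrichment 10.73) and a YL peak 6.11 kb after its end (32 tags, fold enrichment 14.2).

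FOXO1 is a forkhead transcription factor that insulin and AKT signaling hold outside the nucleus, and that otherwise switches on genes of glucose production, antioxidant defense, autophagy and apoptosis. In heart muscle it is known for linking nutrient supply and oxidative stress to metabolism and cell survival. Cytosine methylation at CpG sites of a promoter often goes with low transcription of its gene, and MeDIP-seq detects such methylation by enriching sheared DNA with an antibody against 5-methylcytosine before sequencing, so that a stretch with much methylated DNA appears as a peak of reads. Expression of FOXO1 was not analysed here.

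The animals were castrated boars of 6 months of age, with 4 hearts per group: Tibetan pigs raised in the highland (TH) or the lowland (TL) and Yorkshire pigs raised in the highland (YH) or the lowland (YL). TL and YH animals came from herds that had been moved to their raising place and bred there, and feeding was kept alike within an elevation, so that elevation cannot be told apart from place and feeding. Each group's peaks were deposited as 1 list, and the peaks are not labelled by animal. At most 4 peaks of a list lay over any base, and a peak over a base was therefore read as 1 of the 4 animals. In the TL and YL lists the peaks of each chromosome fell into 4 runs sorted by position, with 0 overlapping peaks within a run. The TH and YH lists were not sorted by start, so for these groups the reading rests on the stacking alone. The sources used here do not state how the lists of the animals were joined, and each count of animals and p-value below depends on this reading. The tags (reads) in all peaks summed to 10518464 in TH, 8639855 in TL, 11333828 in YH and 13893033 in YL, so that TL had the fewest and YL the most.

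The promoter window carried peaks in Tibetan pigs of both elevations and in no Yorkshire pig. Over its middle base there were peaks in 3 of 4 TH animals, 4 of 4 TL animals, 0 of 4 YH animals and 0 of 4 YL animals. As shares of animals with exact (Clopper-Pearson) 95% confidence intervals, which cover counting error only, this was 87.5% of the Tibetan pigs (47.3–99.7%) and 0% of the Yorkshire pigs (up to 36.9%). The breeds did not overlap between TL and YL, where the split was 4 animals against 0. Over the genome, 0.0674% of the 674600 windows with a peak in any list had peaks in 4 TL and 0 YL animals, and 0.597% had 4 against 0 in either direction. A peak in at least 7 of 8 Tibetan and 0 of 8 Yorkshire animals was found in 40 windows, or 0.00593%, which formed 32 separate stretches. The reverse pattern was found in 448 windows, or 0.0664%. Since the window was selected for this contrast, these shares describe how rare the pattern was and are no test of it.

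**Figure D1:**
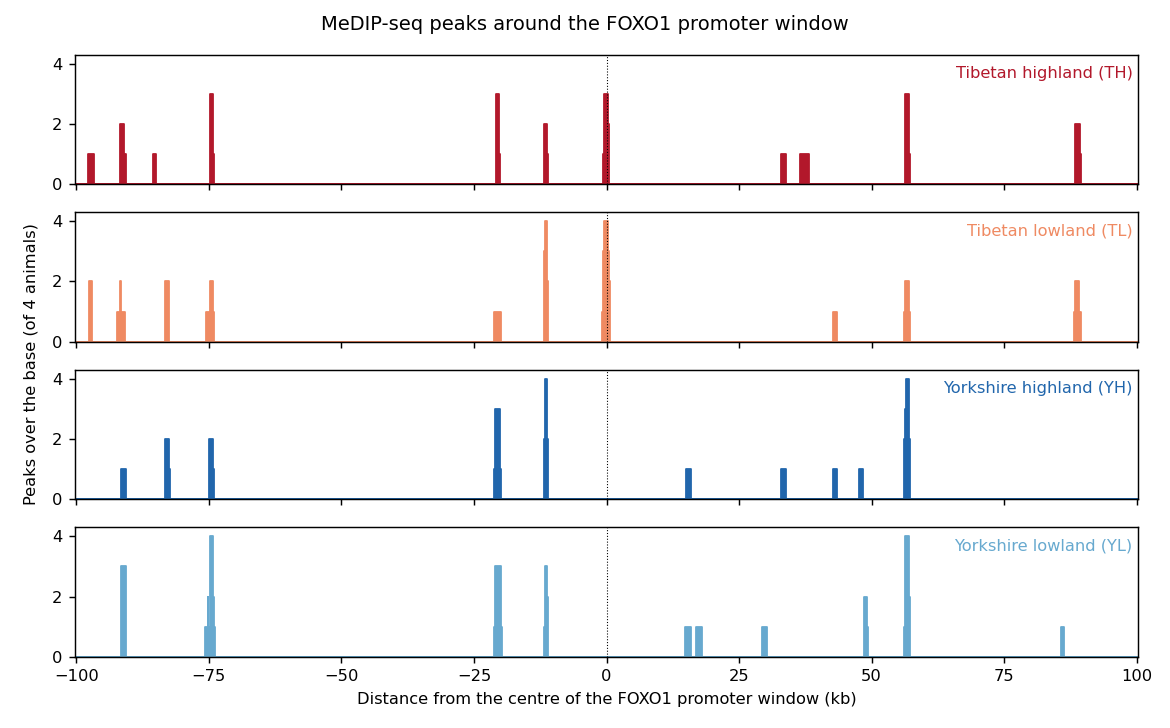
Number of peaks over each base (0 to 4 animals, vertical axis) in each group against the distance in kb from the centre of the promoter window (dotted line). The stack at 0 kb reaches 3 in TH and 4 in TL and is missing from both Yorkshire groups, while the stacks whose nearer ends lie 10.7 kb and 55.9 kb from the edge of the window occur in all 4 groups.

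The promoter cluster consisted of 7 peaks that together ran from 15691330 to 15692817, a length of 1488 bp. All 7 shared the 760 bp from 15691751 to 15692510, which include the whole promoter window. The TH peaks were 1016, 941 and 760 bp long, with 28, 17 and 15 tags. Their fold enrichment, the ratio of reads in the peak to the local background set by the peak caller, was 17.6, 9.81 and 10.18, in the same order. The TH peak with the most tags was thus also the most enriched, and it ranked above 98.9% of all TH peaks by fold enrichment.

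The TL peaks of the promoter were 1393, 1308, 1163 and 890 bp long, with 49, 36, 33 and 18 tags. Their fold enrichment was 15.07, 12, 14.68 and 8.86, and these peaks ranked above 98.3%, 90.9%, 97.8% and 63.7% of the TL list, respectively. They came from the 4 different runs of that list. All 7 Tibetan peaks lay above the median fold enrichment of their lists, which was 8.28 in TH and 7.88 in TL. By tags, the 3 TH peaks ranked above 51.9%, 18.3% and 9.70% of the TH list, in the order given above. The TL peaks ranked above 82.8%, 70.0%, 65.6% and 25.8% of the TL list. Each of the 7 peaks thus had a lower rank by tags than by fold enrichment. Tags are not scaled to the depth of a library. The window was selected on the reads of these animals, so all these ranks are a description and no test.

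In 6 of the peaks the summit, the position with the most reads, lay in a stretch of 101 bp, from 14 to 115 bp beyond the centre of the promoter window. The summit of the TL peak of 36 tags was the exception, 472 bp before the centre, although this peak covered the whole window as well.

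**Figure D2:**
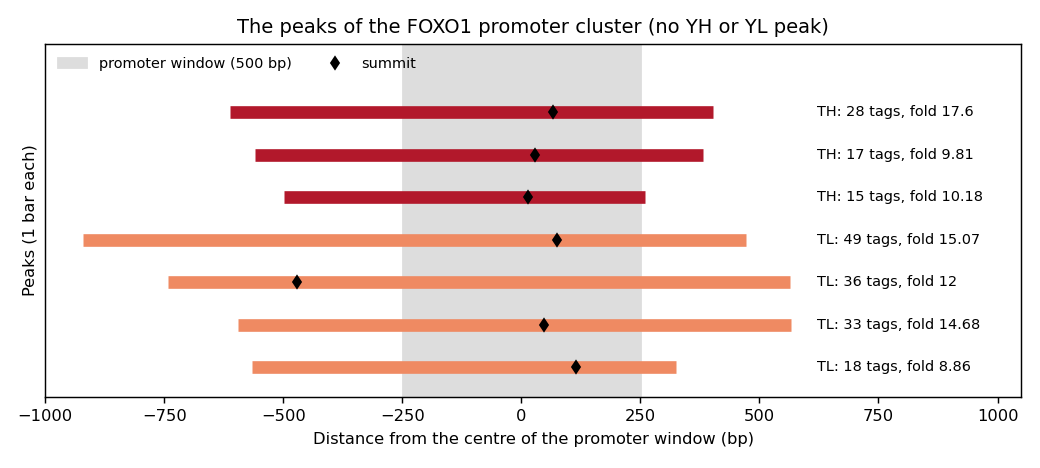
The peaks of the FOXO1 promoter cluster as bars along the distance in bp from the centre of the promoter window (grey), with the summit of each as a diamond and its tags and fold enrichment at the right. The 3 TH and 4 TL peaks all cover the window, and the summit at -472 bp belongs to a TL peak.

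Elevation was not the contrast that chose the window, although it shares the Tibetan animals with it. A peak was present in 3 of 8 highland and 4 of 8 lowland animals (p = 1 by Fisher's exact test, two-sided, and 1 after Benjamini-Hochberg adjustment for 169144 windows). Peaks were in 7 Tibetan and 0 Yorkshire animals, and each elevation had 4 Tibetan animals. The split could thus only be 3 against 4, so this test could not detect an elevation difference. Within Tibetan pigs, 3 of 4 TH and 4 of 4 TL animals had a peak (exact p = 1), a difference that 4 animals against 4 can only resolve when it is complete. In Yorkshire pigs both elevations had 0 of 4. The peaks of TL held 34 tags on average against 20 in TH, with overlapping values, and the difference of 14 tags was not resolved by an exact permutation test, two-sided, over the 35 assignments of the 7 peaks (p = 0.143, adjusted p = 0.286 over 2 tests). Mean fold enrichment was 12.5 in TH and 12.7 in TL (exact permutation p = 1). Both means leave out the TH animal without a peak.

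A stricter limit on tags changed these numbers. With only peaks of at least 20 tags, 1 TH and 3 TL animals kept a peak at the promoter window, against 0 in YH and 0 in YL. The elevation difference then was 1 of 8 against 3 of 8 animals (Fisher's exact test, p = 0.569). With so few animals carrying a peak, this test could not reach p under 0.05.

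The stretch with a difference of 7 against 0 animals between breeds was short and stood alone in the region. The nearest peak of any group ended 10036 bp before the promoter cluster and the next began 14303 bp after it, while the median gap between clusters of peaks on chromosomes 1 to 18 was 4753 bp. Joined where they overlapped, the 89 peaks formed 19 clusters, 7 at lower coordinates than the promoter cluster and 11 at higher ones. Outside the promoter cluster, 38 peaks were Tibetan and 44 Yorkshire, and 39 were highland and 43 lowland. Of these 18 other clusters, 8 had peaks of both breeds over their deepest base (the base under most peaks), 4 of Tibetan pigs alone and 6 of Yorkshire pigs alone. Their numbers of animals per breed nowhere reached the split of 7 against 0 seen at the promoter. Such a split was rare anywhere. Of the windows of the genome with a peak, 0.00593% had at least 7 Tibetan and 0 Yorkshire animals, and 0.0664% the reverse. Its absence from the other clusters is thus no trait of this region.

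Of the 401 windows of 500 bp in the region, 43 had a peak over their middle base, and 40 of these lay outside the promoter cluster. Across the 40 windows, the number of Tibetan minus Yorkshire animals ran from -5 to 4 with a median of -1, being above 0 in 11, below 0 in 22 and equal in 7. The 3 windows of the promoter cluster had differences of 6, 7 and 2. The first of these, from 15691501 to 15692000, had 2 TH, 4 TL, 0 YH and 0 YL peaks over its middle base, and the third, from 15692501, had 2 TL peaks there. All 7 promoter peaks overlapped both of these windows. None of the 40 other windows had 4 animals against 0 over the middle base in any of the 4 comparisons of the study, a split that occurred in 0.37% of the windows of the genome for TH vs. YH, 0.597% for TL vs. YL, 0.159% for TH vs. TL and 0.205% for YH vs. YL. On the whole of chromosome 11, 3 windows had at least 7 Tibetan and 0 Yorkshire animals, 1 of them the promoter window, and the nearest other was 3.36 Mb away.

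Fisher's exact test between breeds (8 animals against 8) could reach p under 0.05 only where 5 to 11 of the 16 animals had a peak over the middle base, which held for 6 of the 40 other windows. None was called at an adjusted p under 0.05, and in the genome 0 of 169144 such windows (0.0%) were called by this test for breed and 0 (0.0%) for elevation. For breed, 12361 windows (7.31%) had an unadjusted exact p under 0.05 and the smallest adjusted p was 0.258. For elevation these were 2718 windows (1.61%) and an adjusted exact p of 1. The smallest adjusted p for breed came from windows split 8 against 0, with a Fisher's exact p of 0.000155, the smallest possible. There were 4 such windows with Tibetan and 98 with Yorkshire peaks, and none was called. The lack of calls thus does not show a lack of breed differences. In the region, 1 of the 6 windows had an unadjusted p under 0.05 between breeds and 0 did between elevations.

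**Figure D3:**
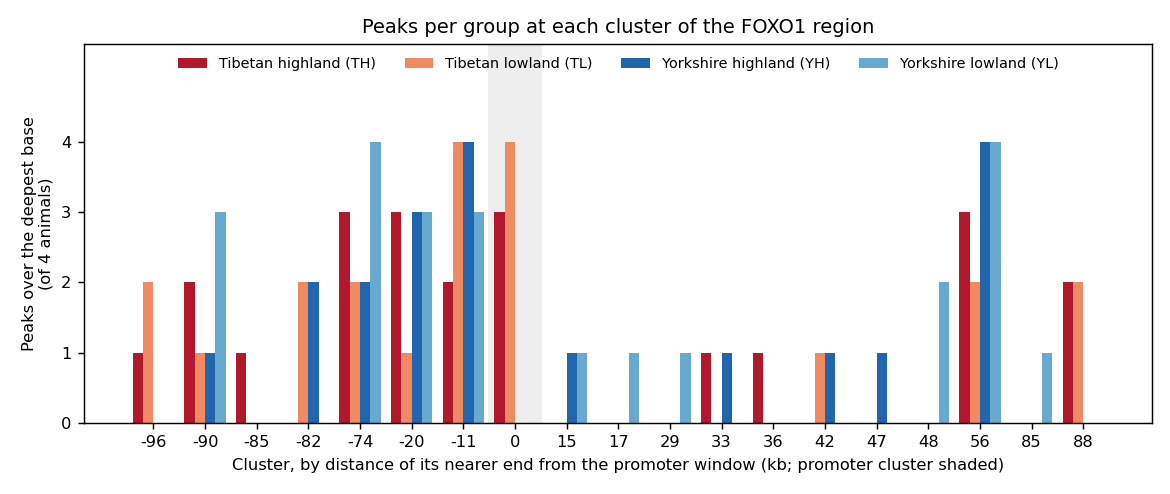
Number of peaks over the deepest base (0 to 4 animals, bars by group) at each of the 19 clusters, which are ordered along the chromosome and named by the distance in kb of their nearer end from the promoter window. The promoter cluster (shaded) has 3 TH, 4 TL, 0 YH and 0 YL peaks. Of the 18 other clusters, 8 have peaks of both breeds, 4 of Tibetan pigs alone and 6 of Yorkshire pigs alone.

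The nearest cluster at lower coordinates, from 15680384 to 15681293, lay 10.7 kb from the promoter window and had peaks in all groups. Over its deepest base there were 2 TH, 4 TL, 4 YH and 3 YL peaks, so that 6 Tibetan and 7 Yorkshire animals had a peak there. Its tags ran from 12 to 22 per peak and its fold enrichment from 8.56 to 14.27, with a median of 10.12. The 13 summits lay within 143 bp. With 13 of 16 animals, the exact test could not reach p under 0.05 at this cluster.

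The second cluster on that side, from 15671087 to 15672472, lay 19.5 kb away and had 3 TH, 1 TL, 3 YH and 3 YL peaks. Its fold enrichment had a median of 12.4 and ran from 9.95 to 16.34, with the highest value in a TH peak. Over the deepest base, 4 Tibetan and 6 Yorkshire animals were not separated by the exact test (p = 0.608, adjusted p = 1 over all clusters tested). The first window of this cluster, from 15671001 to 15671500, was the window with the low unadjusted value, and it is named after its value was seen. Over its middle base it had 0 TH, 1 TL, 3 YH and 3 YL peaks (Fisher's exact p = 0.0406, adjusted p = 0.555 over 169144 windows). This low value depends on the base counted, since the 3 TH peaks began inside the window, past its middle base, and by overlap with the window the split was 4 Tibetan against 6 Yorkshire animals, as over the deepest base. The TH peaks of this cluster were 595, 742 and 527 bp long, while the YH and YL peaks were between 989 and 1299 bp long and the TL peak 1171 bp.

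At higher coordinates, the nearest cluster was 14.6 kb from the window, from 15707121 to 15708251. It had 1 YH peak (24 tags, fold enrichment 8.12) and 1 YL peak (22 tags, fold enrichment 8.69), and no Tibetan peak. The next, 16.6 kb away, was a single YL peak with 29 tags and a fold enrichment of 6.24. Neither cluster had enough animals for the exact test to reach p under 0.05.

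Values on the 2 sides of the promoter are set side by side without a test. The 7 clusters at lower coordinates held 52 peaks, 26 of each breed, with a median fold enrichment of 10.18 (range 6.0 to 19.63). The 11 clusters at higher coordinates held 30 peaks, 12 Tibetan and 18 Yorkshire, with a median of 7.59 (5.16 to 11.61). Of these 11 clusters, 9 had only 1 or 2 peaks. The promoter cluster, with a median fold enrichment of 12, was nearer to the first set, and its median of 28 tags was above the medians of both sets, 18 and 19.5. The lists differ in depth, and its part in these values was not tested.

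Peaks were shared by the most animals at 4 clusters, those with peaks in at least 10 of the 16 animals over their deepest base, 3 of them on the side of lower coordinates. Besides the pair described above, these were the cluster from 15616526 to 15618312 (73.7 kb away, with 3 TH, 2 TL, 2 YH and 4 YL peaks over its deepest base, of 13 in all) and the cluster from 15748375 to 15749537 (55.9 kb away, with 3 TH, 2 TL, 4 YH and 4 YL peaks there). The first of them held the most enriched peak of the region, a TH peak with 32 tags and a fold enrichment of 19.63. At the second, 5 Tibetan and 8 Yorkshire animals had a peak, and with 13 of 16 animals the exact test could not reach p under 0.05 here either. No cluster of the region had peaks in all 16 animals, as 4307 of the 242875 clusters of the genome had, and the planned test of fold enrichment at such clusters had no cluster here.

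Besides the promoter cluster, 2 clusters had peaks of more than 1 animal in Tibetan pigs alone. The one from 15780521 to 15781831, 88.0 kb from the window, had 2 TH peaks (31 and 25 tags, fold enrichment 5.98 and 9.14) and 2 TL peaks (25 and 28 tags, fold enrichment 7.24 and 5.16). With peaks in 4 of 16 animals, Fisher's exact test could not reach p under 0.05 there, since a split of 4 against 0 of 8 gives p = 0.0769, the smallest possible. The other, 96.4 kb away on the opposite side, had 1 TH and 2 TL peaks. The fold enrichment of both clusters stayed between 5.16 and 10.12, below the median of the promoter cluster.

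Of the remaining clusters, the longest ran from 15599932 to 15601679 (1748 bp). It had 2 TH, 1 TL, 1 YH and 3 YL animals over its deepest base, as many animals as the promoter cluster but of both breeds, and the cluster from 15608905 to 15609830 had 2 TL and 2 YH animals. Counting also the 14.6 kb and 16.6 kb clusters, 10 clusters had 1 or 2 peaks. These 10 held 14 peaks with a median fold enrichment of 7.48 (6.24 to 9.81), a range that overlaps only the lowest values of the promoter peaks. The longest stretch without a peak in any list was the 52774 bp between the clusters 73.7 kb and 19.5 kb from the window, longer than 96.9% of the gaps between clusters on chromosomes 1 to 18.

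**Figure D4:**
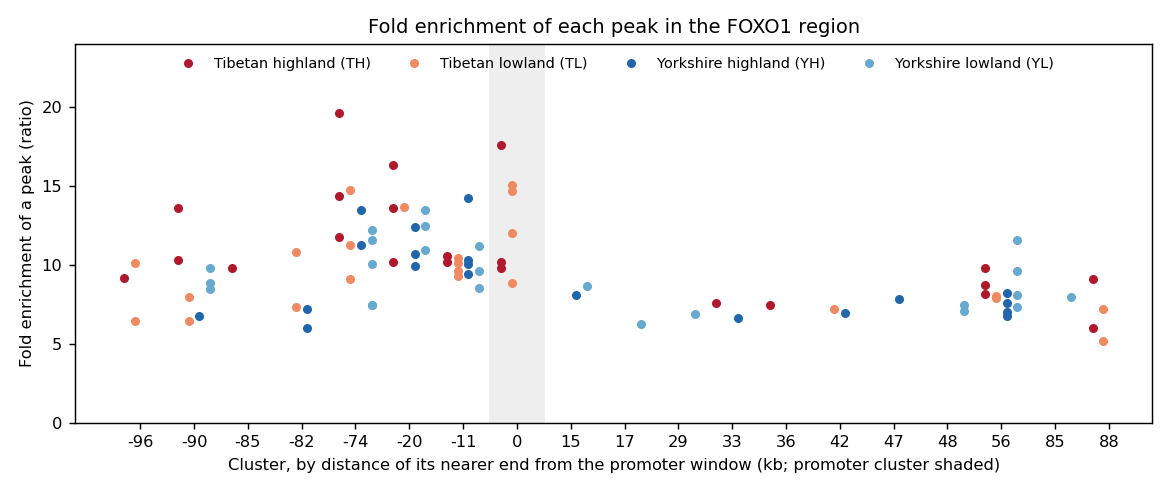
Fold enrichment of each of the 89 peaks (ratio, vertical axis), colored by group, at the 19 clusters ordered along the chromosome and named by distance in kb. The promoter peaks (shaded) lie between 8.86 and 17.6, and peaks at higher coordinates do not exceed 11.61.

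By number of peaks, the region was close to its surroundings. It had 110 TH, 115 TL, 99.8 YH and 120 YL peaks per Mb, against 112, 104, 113 and 130 on chromosome 11. The 4 lists together had 444 peaks per Mb in the region, 458 on chromosome 11 and 436 on chromosomes 1 to 18. Each group has 1 list, and these densities were not tested. The lists with more tags in peaks had more peaks in the genome, and the part of depth in the numbers of peaks at the promoter was not tested.

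By name, in the RefSeq annotation of the later assembly Sscrofa11.1, the protein-coding genes next to FOXO1 are COG6, which serves Golgi transport, on one side and MRPS31, a mitochondrial ribosomal protein, on the other, each beyond a long non-coding RNA. Which of the 19 clusters lie in FOXO1 or in these genes was not analysed here. No gene annotation in the coordinates of the peaks was used, and the bases of the window were not analysed either.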

How the data were processed

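MeDIP-seq libraries were made from the hearts of 16 pigs. For trimming, mapping to Sscrofa10.2 and peak calling, the authors used FASTX, Bowtie and MACS, respectively. The tags per peak are deposited as an unnormalized count, and the fold enrichment is deposited as a ratio over local background. Positions and lengths are other deposited values, in bp. Reads were not analysed here, so a missing peak means only that the caller's limit was not passed.

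The end of a peak was taken from the joint start and end field, since 100907 TH rows lack an end of their own. The summit was read as counted from 1 at the peak's start. Peaks over the middle base (base 250) of each 500 bp window were counted per list and compared by two-sided Fisher's exact tests with Benjamini-Hochberg adjustment over all windows that could reach p under 0.05 (called at an adjusted p under 0.05). The code for counting and testing was tested on simulated data. Peaks were joined into clusters by an overlap of at least 1 bp. The p-values measure the spread between animals as read from stacked peaks.

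The promoter cluster, the 2 nearest clusters on each side, clusters with called windows or peaks in all 16 animals were to be named, and the rest given in counts. The region, clusters and tests were chosen with earlier results of these data known. The tests of tags and fold enrichment between TH and TL at the promoter, the comparison of the 2 sides and the other clusters named singly were chosen after the values were seen. Alternatives were any overlap with the window, at least 250 bp of it, peaks within 2000 bp, at least 20 tags, fold enrichment from the lower quartile of the list up, all windows with a peak, clusters in place of windows, chromosomes 1 to 18, joining within 500 bp and leaving out 1 animal. Statistics were computed with SciPy 1.17.1 and pandas 2.3.3 in Python 3.11.15, and figures were drawn with Matplotlib 3.10.9.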

Additional observations from a re-analysis of the deposited data

Results flagged for a closer look

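The summits of the 4 TL peaks at the FOXO1 promoter were flagged because 1 of them stood apart. It lay 472 bp before the centre of the window, while the other 3 lay 47, 74 and 115 bp beyond it, and the gap was 0.884 of the whole range, above Dixon's 95% critical value for 4 samples. This peak had 36 tags and a fold enrichment of 12, within the range of the other TL peaks. The rule was applied to 24 sets of 4 peaks (tags, fold enrichment, length and summit), of which about 1 in 20 is flagged by chance, and 1 was flagged.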

How the results depend on the processing

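No paired analysis was possible because the peaks do not name the animal they came from, so that replicate numbers could not be used as a block, and leaving out an animal by name or testing fold enrichment at clusters with all 16 animals could not be run here. Called windows stayed at 0 for breed and for elevation, and windows of the FOXO1 region with 4 against 0 outside the promoter cluster at 0, under each of the alternatives run. In the main setting even complete breed splits went uncalled, so the 0 called windows do not show a lack of breed differences. At the promoter window, the YH and YL numbers stayed at 0 under all 5 alternatives and the TH and TL numbers changed only with at least 20 tags. Without 1 animal with or without a peak, the elevation difference ran from -1.71 to -0.429 animals per 8 (exact p from 0.608 to 1). These settings could not reach p under 0.05, since nearly all Tibetan and no Yorkshire animals had a peak. Over the genome, windows with 4 against 0 numbered 2494 (TH vs. YH), 4028 (TL vs. YL), 1072 (TH vs. TL) and 1380 (YH vs. YL). With fold enrichment from the lower quartile up these became 1552, 2506, 709 and 890, fewer peaks being used, and with clusters in place of windows 994, 1609, 463 and 556, fewer units being counted. TH vs. TL also moved to 1635 with any overlap and to 712 with at least 20 tags. With peaks within 500 bp joined, the region had 18 clusters in place of 19.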
